A study of Mus musculus with 24 samples.

Results

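Gene deserts are the long stretches of a chromosome with no annotated gene. Here they were the regions of at least 500 kb in the intergenic class of the kidney tables, chosen by length alone. Of 15797 intergenic regions, 668 qualified (4.23%), and together they covered 742 Mb, which was 47.1% of the intergenic length. Of these, 571 lay on autosomes, 60 on the X chromosome and 37 on the Y chromosome, 268 were at least 1 Mb long, and the median length was 837 kb in a range of 501 to 5861 kb. Each region began 2 kb past the end of a gene in the authors' tables. Deserts are named below by the genes on their left and right, with "unnamed" for a flanking entry that carried no symbol.

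The series applied XR-seq, which sequences the short oligomers cut out by nucleotide excision repair, to kidney and liver. All 12 kidney libraries used here came from wild-type C57BL/6J females aged 6 months, kept on 12 h of light and 12 h of dark, given 10 mg/kg of cisplatin into the peritoneum and sampled 2 h later. The groups are the 6 zeitgeber times (ZT, hours of the light cycle) 0, 4, 8, 12, 16 and 20, with 2 replicate libraries each and no untreated library. Whether the 2 replicates of a time are separate mice is not in the labels, and the p-values rest on the spread between libraries, part of which may be technical. The extraction protocol names antibodies to ultraviolet and benzo[a]pyrene lesions where the treatment names cisplatin.

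Cisplatin links neighbouring guanines in DNA, and nucleotide excision repair removes the adduct as an oligomer that leaves with TFIIH. Transcription-coupled repair acts on the transcribed strand (TS) of active genes, where a stalled RNA polymerase marks the lesion. Global genome repair, in which XPC finds the lesion, serves all other DNA, including the non-transcribed strand (NTS) and sequence between genes. Reads from deserts therefore come from DNA that the annotation leaves without a transcript, although unannotated transcripts can lie there.

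The annotation of the authors' tables was not the only one. By RefSeq (GRCm38.p6, the assembly of mm10), 657 of the 668 deserts held at least 1 entry, 475 held a long non-coding RNA (lncRNA) gene and 92 a protein-coding gene, 46 of the latter off X and Y. Only 11 held none. The promoters of 4 such lncRNA genes are shown (RefSeq, 250 bases before to 50 after the start, read 5′ to 3′ on the strand of the gene, with runs of GG in capitals), since each lies in a desert whose 2 table lines (compared at the end) differed at least 2-fold and on the strand whose line was higher. Gm30524 stands at chr6:140961735-140962034 on the plus strand, Gm34486 at chr10:71527037-71527336 on the plus strand, Gm32121 at chr14:17407737-17408036 on the minus strand and Gm34526 at chr13:86037932-86038231 on the minus strand.
Gm30524: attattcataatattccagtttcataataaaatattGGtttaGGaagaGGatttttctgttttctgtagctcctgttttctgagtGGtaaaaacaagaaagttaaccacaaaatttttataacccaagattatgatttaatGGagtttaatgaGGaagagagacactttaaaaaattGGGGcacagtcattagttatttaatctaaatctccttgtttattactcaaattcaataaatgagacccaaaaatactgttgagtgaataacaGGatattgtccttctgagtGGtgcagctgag
Gm34486: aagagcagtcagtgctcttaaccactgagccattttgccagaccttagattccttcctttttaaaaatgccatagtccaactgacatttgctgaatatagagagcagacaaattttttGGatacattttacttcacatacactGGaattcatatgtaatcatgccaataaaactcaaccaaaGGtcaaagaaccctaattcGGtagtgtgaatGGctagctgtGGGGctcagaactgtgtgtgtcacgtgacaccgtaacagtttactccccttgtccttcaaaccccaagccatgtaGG
Gm32121: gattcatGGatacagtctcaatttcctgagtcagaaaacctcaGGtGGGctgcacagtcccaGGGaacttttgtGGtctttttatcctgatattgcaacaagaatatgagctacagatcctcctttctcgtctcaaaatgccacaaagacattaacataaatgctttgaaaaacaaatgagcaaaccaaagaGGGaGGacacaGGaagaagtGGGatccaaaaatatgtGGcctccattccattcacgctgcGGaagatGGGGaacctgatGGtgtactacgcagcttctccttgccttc
Gm34526: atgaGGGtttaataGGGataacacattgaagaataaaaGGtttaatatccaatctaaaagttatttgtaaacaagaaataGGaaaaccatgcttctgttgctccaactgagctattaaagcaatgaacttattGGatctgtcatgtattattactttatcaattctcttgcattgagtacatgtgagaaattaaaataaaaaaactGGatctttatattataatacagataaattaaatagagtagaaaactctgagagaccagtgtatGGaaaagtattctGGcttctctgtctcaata
These windows held 11, 9, 19 and 10 GG dinucleotides in that order, and 9, 21, 16 and 4 CC dinucleotides, which are GG on the opposite strand (overlapping matches counted). Over the 32851 RefSeq promoters of 300 bases the medians were 23 GG and 22 CC, and 100% held at least 1 of either. All 4 windows were below the median in both counts.

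Per library, the TS, NTS, overlapping-gene and intergenic classes summed to 8196054 to 8254414 reads in replicate 1 and 18866863 to 18941102 in replicate 2, because the authors drew the libraries down to a fixed total per replicate number. Deserts took 214068 to 559010 reads per library, which was a median of 17% of intergenic reads and 2.57% to 2.96% of the 4 classes. Reads fell on Y deserts in all 12 libraries although the labels give females, and 1 Y desert reached the level of sparse autosomal deserts, as set out with the Y chromosome below. In the library where a desert had its fewest reads, the median desert still had 247. Density below is reads per Mb of strand per 1000000 reads of the 4 classes, with both strands of an intergenic region counted in its length.

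Deserts had the lowest read density of the sequence classes compared. Over the 12 libraries they stood at 17.3 to 20.0, against 72.6 to 85.6 in intergenic regions under 500 kb, 84.0 to 120 on the NTS of genes and 715 to 774 on the TS. The ranges did not overlap. Desert density was 4.30-fold lower than that of the other intergenic DNA (log2 -2.10 ± 0.04, SD, n = 12), 5.52-fold lower than that of the NTS (log2 -2.46 ± 0.10) and 40.9-fold lower than that of the TS (log2 -5.35 ± 0.09). Each difference had the same direction in 12 of 12 libraries, for p = 0.000488 in an exact two-sided sign-flip permutation test, adjusted over 4 comparisons to 0.000488, the smallest value the design allows. With intergenic reads divided by the length of the double strand instead, the log2 differences from NTS and TS were -1.46 and -4.35. Without the Y deserts they were -2.0 against other intergenic DNA, -2.34 against the NTS and -5.22 against the TS.

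**Figure D1:**
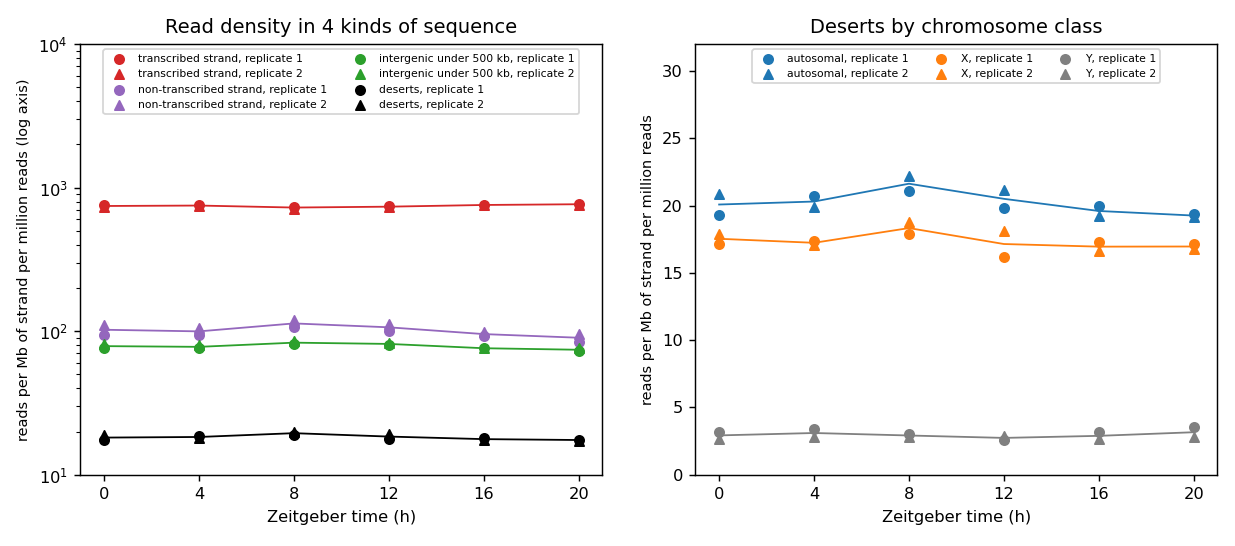
Read density against zeitgeber time in hours, with circles for replicate 1, triangles for replicate 2 and lines through the means. On the left (log axis) deserts lie at 17.3 to 20.0, below the 3 other kinds of sequence at every time, and on the right autosomal deserts lie above X deserts and far above Y deserts.

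Density fell with the length of the region across the whole intergenic class. Regions under 10 kb had 274 ± 5.77 (SD, n = 12), those of 10 to 100 kb 113 ± 5.43 and those of 100 to 500 kb 49.0 ± 2.77. Deserts of 500 kb to 1 Mb had 23.0 ± 1.16, and deserts of at least 1 Mb had 15.4 ± 0.718. The libraries' ranges of these 5 classes did not overlap. All 5 classes include the Y chromosome, where deserts had 2.96 ± 0.303 and regions under 500 kb had 3.95 ± 0.332. The part of Y in the fall by class was not tested. Among the 631 deserts off the Y chromosome, log2 density and log2 length had Pearson's r = -0.33 and Spearman's rho = -0.36, a description over regions that share libraries. At the threshold itself, the 4 deserts just above 500 kb had mean densities of 34.6 (Fam188a:C1ql3, chromosome 2), 22.5 (Zc3h12c:AI593442, chromosome 9), 105 (Jun:Fggy, chromosome 4) and 10.8 (D16Ertd519e:4931420L22Rik, chromosome 16). The 4 regions just below it had 22.1 (Gm14725:Mamld1, X), 1.39 (Gm20806:Ssty2, Y), 17.3 (Gria4:Casp1, chromosome 9) and 72.8 (Prok2:Rybp, chromosome 6).

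Desert density also went with the repair of the genes next door, as a description over regions. For 627 deserts off Y, log2 density had r = 0.53 (rho = 0.57) with the TS density of the denser flanking gene, and for 628 it had r = 0.51 (rho = 0.58) with the mean NTS density of the flanking genes. When the 629 deserts off Y with a value for a flanking gene, 2 of them at 0, were split into 4 groups of near equal size by that TS density, the median desert density was 14.3, 15.7, 18.9 and 27.4 from the lowest group to the highest. Within the highest group the middle range of single deserts, from lower to upper quartile, was still 17.7 to 37.3. The direction in which the flanking genes point did not separate the deserts: the median was 16.9 in 123 deserts with no gene end facing in, 17.1 in 272 with 1 and 16.8 in 155 with 2. Off Y, deserts without a RefSeq lncRNA gene had a median of 15.6 (n = 169), those with lncRNA genes over less than 10% of their length 16.5 (n = 315) and those with at least 10% 23.0 (n = 147).

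**Figure D2:**
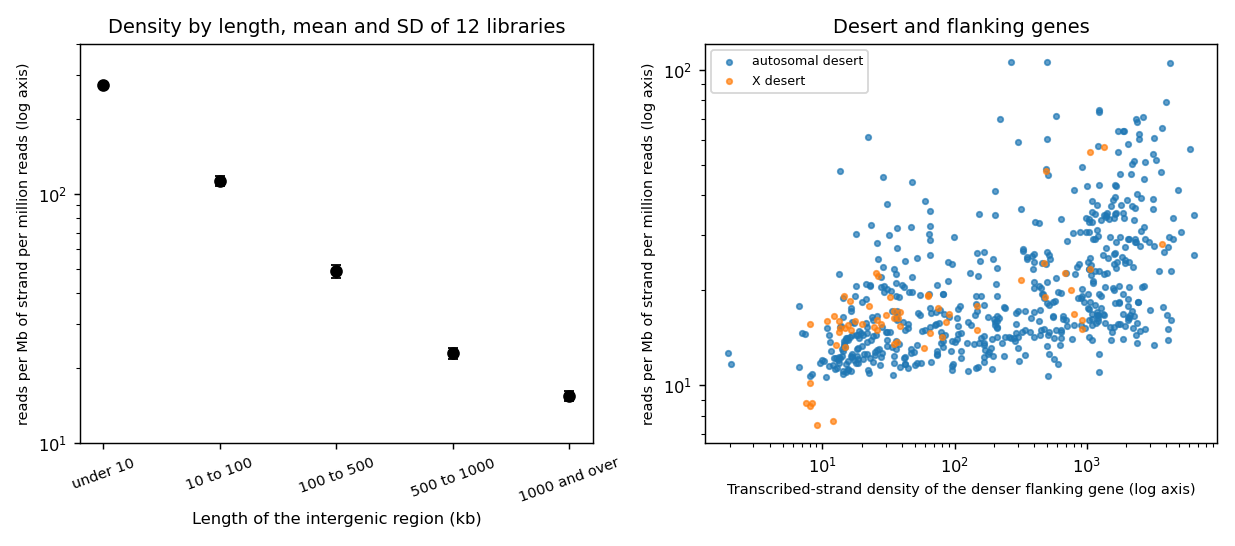
On the left, mean density and SD of 12 libraries by length of the intergenic region (log axis, Y included), falling from 274 under 10 kb to 15.4 at 1 Mb and over. On the right, each autosomal or X desert by the TS density of its denser flanking gene (both axes log, same unit), where high desert densities are found mostly beside densely repaired genes.

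Most single deserts kept a similar density across libraries. Over the 631 deserts off Y, log2 densities in the 66 pairs of libraries had r of 0.93 to 0.99 (rho 0.94 to 0.98), and the coefficient of variation over 12 libraries had a median of 7.76% in a range of 2.90% to 87.4%. The middle of the distribution was narrow: the lower and upper quartiles were 14.2 and 24.8, around a median of 16.9. The 63 densest deserts held 20.7% of the reads in 7.74% of the length.

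The 6 deserts of highest mean density were all autosomal. Sall1:Tox3 (chr8:89046163-90245111), beside Sall1, a zinc finger factor needed for kidney development, had a lowest, median and highest density of 68.9, 79.1 and 88.7. Jun:Fggy (chr4:95054223-95555506), beside Jun, a subunit of the AP-1 transcription factor, had 87.6, 102 and 131. Mtx2:9430019J16Rik (chr2:74878749-75434056), on the side of Mtx2 away from the Hoxd homeobox cluster, had 64.5, 73.7 and 83.5. In all 12 libraries these 3 lay above 24.8, the upper quartile of the mean densities of deserts off Y.

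A further pair among the 6 lay in clusters of zinc finger genes. 2210418O10Rik:Gm14420 (chr2:176929814-177462741) had a lowest, median and highest density of 89.6, 105 and 124, and Zfp619:4933402C06Rik (chr7:39542416-40672736) had 69.6, 74.0 and 76.9. The latter varied least of the 6, with a coefficient of variation of 3.70%. Such gene clusters hold near-identical copies, so that reads there are placed with less certainty. The last of the 6, Ube2e2:Gm5458, is described with the times.

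Of the 5 longest deserts off Y, 4 lay at the low end. Olfm4:Pcdh17 (chr14:80023931-84441562) ranged from 12.7 to 14.6, Dsel:Cntnap5a (chr1:111866919-115683136) from 12.5 to 14.4 and Gm20268:Cdh20 (chr1:101177203-104766818) from 10.9 to 12.9. Cdh6:Cdh9 (chr15:13175676-16776100), between 2 cadherin genes, ranged from 12.5 to 15.7. These 4 stayed below 16.9, the median of deserts off Y, in all 12 libraries. The exception was Lrrc4c:Rag2 (chr2:97633665-101558780), between a synaptic adhesion gene and a gene of antigen receptor recombination, with 25.4 to 139.

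By chromosome, the deserts of chromosome 7 were the densest at 25.8 ± 1.23 (SD, n = 12), followed by chromosome 2 at 24.5 ± 3.20. Those of chromosome 17 (17.1 ± 0.726), chromosome 3 (17.3 ± 0.863) and X (17.4 ± 0.707) were the sparsest apart from Y. Against the deserts of all other autosomes, chromosome 7 was higher by 0.37 and chromosome 2 by 0.29 on the log2 scale, and chromosome 17 lower (log2 -0.25), as was chromosome 3 (log2 -0.25). In exact sign-flip permutation tests over the 12 libraries, 18 of the 20 chromosomes (19 autosomes and X) differed in 12 of 12 libraries with adjusted p = 0.000543, and chromosome 19 differed with adjusted p = 0.00206. Chromosome 10 was higher in 6 and lower in 6 libraries (log2 -0.01, adjusted p = 0.599). These tests measured how steady a ratio within each library was over the 12 libraries, not the spread between deserts. Single deserts within chromosome 7 spanned 12.8 to 73.3. Without Ube2e2:Gm5458 and Lrrc4c:Rag2, the excess was 0.13 on chromosome 2 and 0.08 on chromosome 14 in place of 0.29 and 0.16, still in 12 of 12 libraries.

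**Figure D3:**
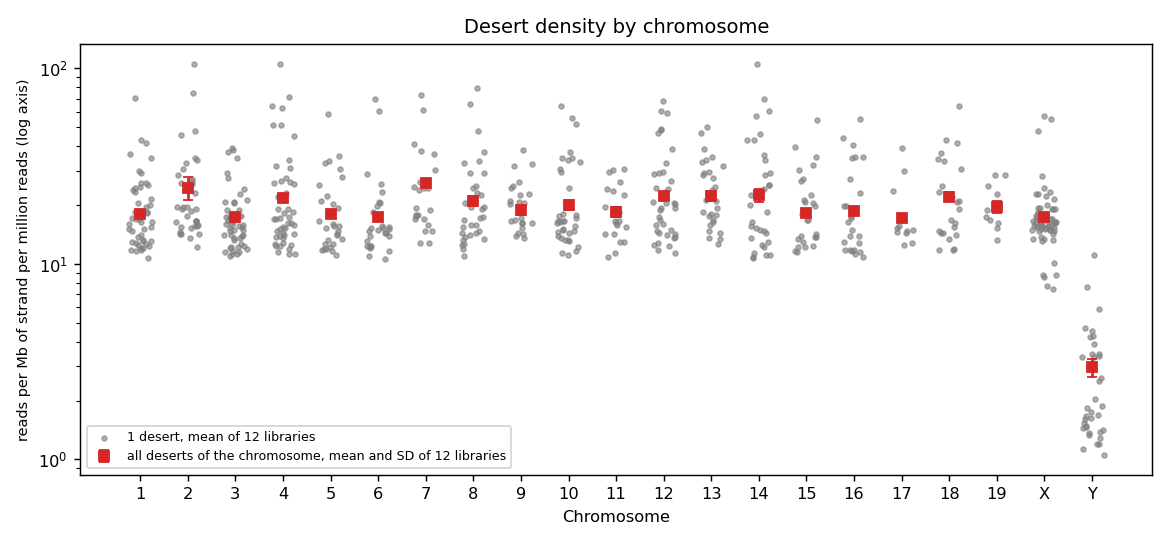
Mean density of each desert over 12 libraries (grey) and of all deserts of a chromosome with the SD of 12 libraries (red), on a log axis. Autosomes and X overlap, with chromosome 7 highest at 25.8, while Y lies apart at 2.96.

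On X, where females carry an inactive and an active copy, deserts had 1.16-fold lower density than autosomal deserts (17.4 ± 0.707 against 20.2 ± 0.963, log2 -0.22 ± 0.03, lower in 12 of 12 libraries, exact sign-flip permutation p = 0.000488). Intergenic regions under 500 kb differed more: 34.4 ± 1.24 on X against 83.7 ± 4.06 on autosomes (log2 -1.28 ± 0.03). The X deficit was smaller in deserts by 1.06 ± 0.03 on the log2 scale in 12 of 12 libraries (exact sign-flip permutation p = 0.000488), a comparison chosen after the data were seen. The 6 sparsest deserts off Y were all on X. The sparsest, Gm6121:Gm10486 (chrX:26937670-27470033), had 5.13 to 9.01, and the highest of the 6 means was 10.1. Their flanks include multicopy gene families such as Slxl1 and the Gm10486 copies, where reads are placed with less certainty. The densest X desert was Gm4906:Bcor (chrX:11330152-12034737), beside the BCL6 co-repressor gene, with 46.4 to 74.4.

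The labels give females, which carry no Y chromosome, yet reads fell on the 37 Y deserts. They made up 10.0% of desert length and had 2.96 ± 0.303 (SD, n = 12), which was 6.86-fold lower than autosomal deserts, from 3186 to 8083 reads per library. Their median was 1.83. The densest, Usp9y:Zfy2 (chrY:1461783-2104174), had 10.4 to 12.4 in the 12 libraries, and 12 of 571 autosomal deserts had a lower mean. Whether the female label holds was not tested. No other Y desert came within the autosomal range.

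The widely expressed Y genes near Usp9y:Zfy2 had few reads and showed no clear excess on the transcribed strand. Ddx3y, an RNA helicase gene, had 11.4 ± 4.31 (SD, n = 12) on its TS and 10.9 ± 4.4 on its NTS, and Kdm5d, a histone demethylase gene, had 13.2 ± 3.44 and 9.89 ± 3.54. The X partners Ddx3x, Kdm5c and Eif2s3x had 1953 ± 249, 2175 ± 150 and 1756 ± 130 on the TS. On the NTS they had 220 ± 57.8, 129 ± 28.7 and 75.5 ± 18.2. The source of the Y reads was not tested. The desert Gm20854:unnamed at the end of Y (chrY:85531520-90749139) had 7.64.

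Over the day, the summed desert density moved little. The means of the 2 libraries were 18.2 ± 0.911 (SD) at ZT0, 18.3 ± 0.545 at ZT4, 19.5 ± 0.684 at ZT8, 18.5 ± 0.928 at ZT12, 17.7 ± 0.492 at ZT16 and 17.5 ± 0.192 at ZT20. Both ZT8 libraries (19.0 and 20.0) were above every library of ZT0, ZT4, ZT16 and ZT20, while ZT8 and ZT12 overlapped. A 24 h cosine fitted to log2 density gave 0.07 ± 0.02 (SE) as amplitude, 7.56 h as peak and a fold of 1.09 from peak to trough. Its permutation p over 100000 draws was 0.0355, and 0.0591 after Benjamini-Hochberg adjustment over the 5 rhythms tested here, so it did not pass 0.05. Without ZT0 replicate 2, ZT4 replicate 2 or ZT12 replicate 1 the adjusted permutation p was 0.0252, 0.0367 or 0.0399, and over all 12 libraries left out in turn it ran from 0.0252 to 0.172.

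None of the 4 ratios passed 0.05 after adjustment either. The desert to other intergenic ratio had an amplitude of 0.01 ± 0.02 (adjusted permutation p = 0.765). The desert to NTS ratio had 0.07 ± 0.04 (adjusted permutation p = 0.407). The desert to TS ratio had 0.10 ± 0.03 with a peak at 7.72 h, and the X to autosome ratio of deserts had 0.04 ± 0.01 with a peak at 21.2 h, each with adjusted permutation p = 0.0591 (unadjusted 0.0244 and 0.0118). Without ZT0 replicate 2, ZT4 replicate 2 or ZT12 replicate 1 these were 0.0169, 0.0367 and 0.0399 for the TS ratio and 0.0203, 0.0367 and 0.0399 for the X ratio, which was 0.0465 without ZT4 replicate 1.

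Region by region, 3 of the 668 deserts (0.449%) had a 24 h rhythm at an edgeR adjusted p under 0.05, against 3.18% of all 13875 intergenic regions tested. At an unadjusted p under 0.05 there were 79 (11.8%), against 20.8% of all regions. The highest of the 6 time means fell at ZT8 in 430 deserts and the lowest at ZT20 in 222 and ZT16 in 168, a count that the shared libraries tie together. The median amplitude was 0.08 (log2) in deserts and 0.16 in other intergenic regions, which had a median of 53.5 reads per library against 442 in deserts; the part of depth in this was not tested.

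The first of the 3 was Tmem126b:Dlg2 (chr7:90477996-91088785), beside a gene for a synaptic scaffold protein, with a cosine amplitude of 0.20 ± 0.05 (SE, log2), peaking at 11.7 h (edgeR adjusted p = 0.0421). Its 2 libraries had 20.1 and 23.8 at ZT0, 20.7 and 22.2 at ZT4, 27.5 and 28.3 at ZT8, 27.6 and 27.0 at ZT12, 27.5 and 25.1 at ZT16 and 22.7 and 21.7 at ZT20. ZT8, ZT12 and ZT16 lay above all libraries of the other 3 times.

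Agtr1b:Tbl1xr1 (chr3:20369178-22074651), beside the angiotensin receptor gene Agtr1b, had a cosine amplitude of 0.18 ± 0.04, peaking at 9.55 h (edgeR adjusted p = 0.0446). Its libraries had 34.3 and 41.2 at ZT0, 35.2 and 36.6 at ZT4, 41.0 and 45.6 at ZT8, 43.6 and 44.8 at ZT12, 37.3 and 36.3 at ZT16 and 30.4 and 34.7 at ZT20. Both libraries of ZT12 were above all those of ZT0, ZT4, ZT16 and ZT20, while ZT8 overlapped ZT0.

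Mir222:Chst7 (chrX:19148972-20057569), between a microRNA and a sulfotransferase gene, ran the other way, with a cosine amplitude of 0.16 ± 0.04, peaking at 19.9 h (edgeR adjusted p = 0.0469). Its libraries had 54.6 and 64.1 at ZT0, 46.9 and 52.5 at ZT4, 49.0 and 52.3 at ZT8, 50.9 and 51.5 at ZT12, 57.4 and 59.5 at ZT16 and 58.1 and 63.8 at ZT20. All libraries of ZT16 and ZT20 were above all of ZT4, ZT8 and ZT12.

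Each of these 24 h calls was lost in most fits with a library left out. With each library left out in turn, Mir222:Chst7 kept its call in 3 of 12 fits and each of the other 2 in 2 of 12, with edgeR adjusted p up to 0.192. The count of deserts called was 71 (10.6%) without ZT0 replicate 2 and 28 (4.19%) without ZT4 replicate 1, where 15.4% and 7.21% of all intergenic regions were called. It was 2 without ZT0 replicate 1, and 0 or 1 without any other library (both libraries of ZT8, ZT12, ZT16 and ZT20, and ZT4 replicate 2), where 0.642% to 2.98% of all regions were called and 35 to 84 deserts had an unadjusted edgeR p under 0.05. With DESeq2, Mir222:Chst7 kept its call (adjusted p = 7.12e-10), and Tmem126b:Dlg2 and Agtr1b:Tbl1xr1 did not (adjusted p = 0.0605 and 0.184).

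The replicate number carries a depth of its own, and other differences went with it: at 6 of 6 times replicate 2 was the higher in NTS density and in that of other intergenic DNA, and the lower in TS density, while deserts were higher in replicate 2 at 3 of 6. With the number as a term in the edgeR fit, 48 deserts (7.19%) had a 24 h rhythm, against 12.0% of all regions, and 75 (11.2%) differed among times, against 13.3%. The 3 deserts named above kept their call in that fit, with edgeR adjusted p = 0.00775 (Tmem126b:Dlg2), 0.00307 (Agtr1b:Tbl1xr1) and 0.00495 (Mir222:Chst7). Fitted within replicate 1 and within replicate 2 alone, the amplitude was 0.27 and 0.17 for Tmem126b:Dlg2, 0.23 and 0.16 for Agtr1b:Tbl1xr1 and 0.16 and 0.18 for Mir222:Chst7. For the summed desert density it was 0.05 and 0.08, with peaks at 7.38 and 7.67 h, for the desert to TS ratio 0.08 and 0.11, and for the X to autosome ratio 0.05 and 0.02. For the desert to NTS ratio it was 0.09 and 0.05, and for the ratio to other intergenic DNA 0.03 and 0.01.

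Differences among the 6 times of any shape were called in 2 deserts (0.299%, edgeR adjusted p under 0.05), against 0.274% of the 14239 intergenic regions tested, and 57 had an unadjusted p under 0.05 (8.53%, against 12.2%). Ube2e2:Gm5458 (chr14:18895628-19592137), beside a ubiquitin-conjugating enzyme gene, had 44.3 and 44.4 at ZT0, 378 and 105 at ZT4, 154 and 83.0 at ZT8, 58.3 and 82.1 at ZT12, 128 and 83.2 at ZT16 and 50.6 and 57.5 at ZT20 (edgeR adjusted p = 0.00233). Lrrc4c:Rag2 had 25.4 and 25.5 at ZT0, 139 and 48.9 at ZT4, 64.2 and 41.7 at ZT8, 29.9 and 40.1 at ZT12, 56.0 and 39.7 at ZT16 and 31.4 and 29.8 at ZT20 (edgeR adjusted p = 0.00324). Both deserts were lowest in both ZT0 libraries and highest in ZT4 replicate 1.

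The pair rose and fell together, on different chromosomes, with r = 0.996 between their log2 densities over the 12 libraries. The density of the first was 1.61 to 2.71 times that of the second in every library. The cause of this shared course was not tested. Replicates of a time differed by up to 3.60-fold in the first, so the mean of 106 ± 92.4 (SD, n = 12) was 80.9 ± 35.8 without ZT4 replicate 1, and that of the second was 47.7 ± 31.4 and then 39.3 ± 12.7. Both kept their call in 12 of 12 edgeR fits with a library left out, with adjusted p = 0.00114 and 0.00151 without ZT4 replicate 1. Neither was called with DESeq2 (adjusted p = 0.0713 and 0.216). With the replicate number as a block both were called (edgeR adjusted p = 4.79e-11 and 5.68e-11). Together they held 0.939% to 5.84% of desert reads, the latter in ZT4 replicate 1. Without them, the 24 h rhythm of the summed desert density had adjusted permutation p = 0.159. Leaving out a ZT0 library or ZT4 replicate 2 raised the count of deserts called to 9 (ZT0 replicate 1), 10 (ZT0 replicate 2) or 5 (ZT4 replicate 2), and that of all intergenic regions to 2.16%, 3.19% or 0.397%.

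**Figure D4:**
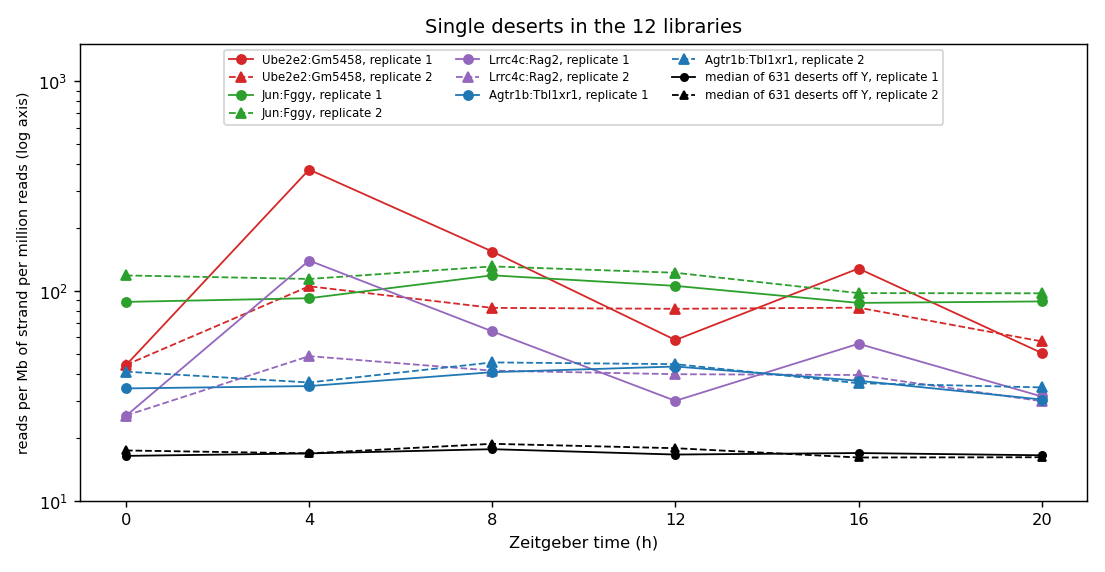
Density of 4 deserts and the median of the 631 deserts off Y in each library (log axis), solid lines for replicate 1 and dashed for replicate 2. Ube2e2:Gm5458 and Lrrc4c:Rag2 reach 378 and 139 in ZT4 replicate 1, where the median and the other 2 deserts show no such rise.

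Each desert stands on 2 lines of the tables, both marked "+", and nothing in the tables says what sets them apart. They were compared after the data were seen, with edgeR and the library as a block. The lines differed in 332 of 666 deserts tested (49.8%, adjusted p under 0.05; 151 with line 1 higher and 181 with line 2 higher), against 71.6% of the 11733 intergenic regions tested. They were at least 2-fold apart in 36 (5.41%), 24 with line 1 higher and 12 with line 2 higher, against 37.7%. The median absolute log2 difference was 0.12 in deserts and 0.66 in other intergenic regions.

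The flanking genes give the lines an orientation. In regions under 10 kb between 2 plus-strand genes, line 1 was higher at a median log2 of 1.64 (n = 458), and between 2 minus-strand genes it was lower at -1.60 (n = 426). Between genes pointing at each other the median was -0.19 (n = 503). In deserts the same medians were 0.03 (n = 125) between plus-strand genes and -0.07 (n = 147) between minus-strand genes. Line 1 was the higher in 61.6% and 31.3% of these deserts. Line 1 thus went with genes of the plus strand and line 2 with those of the minus strand, by these counts only.

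Among deserts off Y with the largest difference, Mid1:unnamed (chrX:169992798-170670643), beside the gene that spans the boundary of the pseudoautosomal region, had 83.3% to 90.5% of its reads on line 1 (median 86.6%, log2 2.69 ± 0.06, SE, edgeR adjusted p = 1.38e-26). The Y desert Gm20854:unnamed had 71.4% of its reads on line 1. The opposite extreme was Slco6c1:D1Ertd622e (chr1:97130304-97641901), beside an organic anion transporter gene, with 12.9% to 20.1% on line 1 (median 15.9%, log2 -2.39 ± 0.06, edgeR adjusted p = 9.54e-26). The Slco6c1 desert holds 2 RefSeq protein-coding genes, Gm7133 and Gm7135. For them and for the entry in the Mid1 desert, the annotation used here gave no strand to set against the lines.

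In other deserts RefSeq gave genes with a strand. Aebp2:Pde3a (chr6:140680473-141247268), which holds Gm30524 (90.4 kb, plus strand), had 73.9% to 83.1% of its reads on line 1 and a density of 69.6 ± 5.63 (SD, n = 12). The desert unnamed:1700049L16Rik (chr10:71387886-71977884), which holds Gm34486 (38.1 kb, plus strand), had 73.4% to 81.2%. The desert unnamed:Thrb (chr14:17108287-17658959), beside a thyroid hormone receptor gene and holding Gm32121 (77.1 kb, minus strand), had 20.3% to 31.1%. In each of the 3 the higher line was the one that goes with the strand of the lncRNA gene. Their genes were picked for display above by that match, so it is not a separate result. Deserts of chromosome 18 were left out of that pick.

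This match was not general. Klf12:Prr30 (chr14:100151797-101195689), beside a Krüppel-like factor gene, had 18.4% to 30.5% on line 1, and Mir30d:Khdrbs3 (chr15:68343290-68926419), beside a microRNA of the miR-30 family, had 21.0% to 26.0%. In both, the longest stranded RefSeq gene (Gm41231, 7.15 kb, and Gm49415, 5.56 kb) lies on the plus strand. Of the 36 deserts at least 2-fold apart, 29 held stranded RefSeq genes of unequal length between strands. The higher line went with the strand of greater gene length in 19 and with the other strand in 10. Entries for which the annotation used here gave no strand did not enter these counts. Of 22 whose longest such gene was at least 20 kb, 17 had the higher line on its strand. Denser deserts also had the larger line differences (r = 0.61, rho = 0.53 over 631 deserts off Y), as a description over regions.

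**Figure D5:**
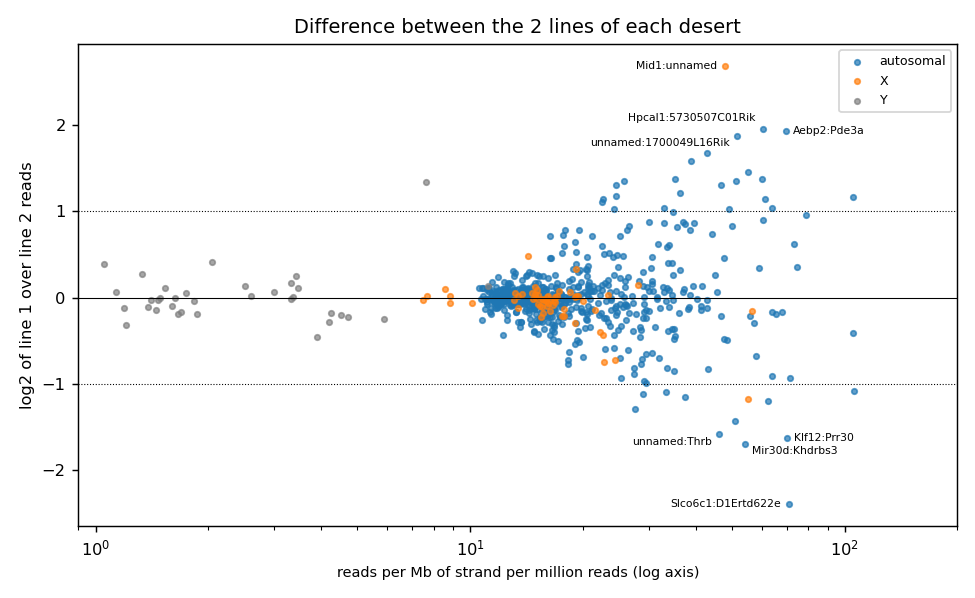
Log2 of line 1 over line 2 reads of each desert against its mean density (log axis), with dotted lines at 2-fold and names for the 4 largest differences on each side. Deserts of about median density lie near 0, and differences beyond 2-fold occur among the denser deserts and in 1 Y desert.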

How the data were processed

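XR-seq reads of 12 mouse kidney libraries (6 zeitgeber times, 2 replicates each, grouped by their titles) were taken from tables on mm10, per the submitters' processing notes, with the aligner and counter not given in the sources used here. Per the file headers, the authors deposited a read count and an RPKM value for each region, time and line. Both were drawn down by the authors to a fixed total, which the RPKM values gave as 8700000 reads (replicate 1) and 20000000 (replicate 2). The deposited RPKM values served only for this.

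The 2 lines of a region were summed. Counts were tested with edgeR 4.0.16 (R 4.3.3; glmQLFit and glmQLFTest, filterByExpr, library size the reads of the 4 classes) for a 24 h cosine and for differences among 6 times, on all intergenic regions, with Benjamini-Hochberg adjustment; the scripts were tested on simulated data. All 668 deserts passed the filter in the rhythm fit, and 666 in the fit of single lines. Levels were compared by sign flips of the 12 libraries (4096) and rhythms of sums by 100000 permutations (scipy 1.17.1). Density uses the full length from start to end, undetermined bases included. RefSeq symbols are those of GRCm38.p6.

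Regions were named by a rule: off Y, the 6 highest and 6 lowest mean densities and the 5 longest, those called for rhythm or times, the densest and sparsest on X, and 4 on each side of 500 kb; uneven lines were named after their values were seen. The regions and lists were chosen with earlier results of these data known. Alternatives were TMM, other library totals, no filter, DESeq2 1.42.0, the replicate number as a block, other region sets, length per double strand, a 1 Mb threshold and leaving out each library.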

Additional observations from a re-analysis of the deposited data

How the results depend on the processing

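The 4 differences in level kept their direction and p under 0.05 in all alternatives, among them 1 Mb as the threshold, the median over deserts, no Y, and each library left out. The size depended on the comparison set: log2 -1.42 to -2.35 against other intergenic DNA, and -0.08 to -0.22 for X against autosomes. The 5 rhythms kept adjusted permutation p of at least 0.05 in all alternatives other than leaving out libraries; there, the amplitude ran from 0.051 to 0.075 for the sum (adjusted permutation p 0.0252 to 0.172), from 0.074 to 0.11 for the desert to TS ratio (0.0169 to 0.172) and from 0.029 to 0.040 for the X ratio (0.0203 to 0.113). For the NTS ratio it ran from 0.034 (without ZT20 replicate 1) to 0.086 and for the ratio to other intergenic DNA from 0.0042 to 0.024. The count of deserts with a 24 h rhythm was 3, and 1 among those of at least 1 Mb, 8 with DESeq2, 3 or 4 with TMM, intergenic totals, the fixed totals or no filter, and 0 to 71 without single libraries, where 3.37%, 2.77% to 3.38% and 0.642% to 15.4% of all regions were called. The count differing among times was 2, and 1 at 1 Mb, 1 with DESeq2, 2 or 3 with the other scalings or no filter, and 2 to 10 without single libraries (0.295%, 0.253% to 0.428% and 0.120% to 3.19% of all regions). The 1 Mb counts are lower by construction (268 deserts); for the others the cause was not tested. Counts of deserts with unequal lines ran from 248 to 336, and those at least 2-fold apart from 31 to 43; these settings, the fixed totals, the fits within a replicate number and the removal of the 2 most variable deserts were chosen after seeing the data.

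With the replicate number as a block (replicate block), 48 deserts had a 24 h rhythm (12.0% of all regions) and 75 differed among times (13.3%), while the 5 adjusted permutation p were 0.0767, 0.766, 0.0784, 0.0546 and 0.0546 in the order given in the text. Deviations of same-numbered libraries from their time means had correlations of 0.05 to 0.23 (median 0.13), below 0.1 at the lowest. On that ground the main fits did not take the numbers to pair the samples. All the correlations were positive and densities differed by number, so the low values do not show the number to be without effect. The length without undetermined bases was not run, as no genome was used here. Median depth was 247 reads in the poorest library of a desert, and 8 in the poorest desert.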

Other observations

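After Ube2e2:Gm5458 and Lrrc4c:Rag2, the 2 deserts off Y whose density varied most over the libraries, named here after their values were seen, were also highest in ZT4 replicate 1. The desert between unnamed entries at chr13:84297967-85187384 had a density of 52.3 there, and 22.1 ± 1.07 (SD, n = 11) in the other libraries. A430085M09Rik:Tyrp1 (chr4:78599485-80832212), beside a gene of melanin synthesis, had 27.7 there and 12.8 ± 1.22 in the others. Neither was called as differing among times (edgeR adjusted p = 0.30 and 0.233).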
